A study of Homo sapiens with 4 samples.

Results

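Polyribosome RNA was set against total poly(A) RNA of the same control cells, gene by gene, to describe which messages were well represented on ribosomes and which were left out. The genes described are those whose control input and control polyribosome values averaged 5 FPKM or more, which were 7411 of the 17064 rows of the table. FPKM is a fragment count scaled to transcript length and to the mapped fragments of the library. The cells were KYSE-150, an established line of human esophageal squamous cell carcinoma. Per the labels they were the control of a stable hairpin knockdown of NSUN6, an RNA methyltransferase that forms 5-methylcytosine. The closing line of the table, which repeats column names, gives these columns as K150 with a hairpin against GFP. Before lysis the cells received cycloheximide at 100 ug/ml, which halts elongating ribosomes on their messages. A 10% share of the lysate became the input, and the rest was spun for 5 hours through 30% sucrose, and the RNA that was pelleted is called polyribosome RNA. There was 1 library per group, so no value has a replicate check, no test was possible and the read depth is unknown.

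Ribosomes load onto a message by scanning from its cap to a start codon, and a long or frequently initiated reading frame carries more of them. A cushion, unlike a gradient, does not sort messages by the number of ribosomes they carry. Some messages are known to be held off ribosomes in a regulated way. Messages of the translation machinery begin with a run of pyrimidines, the TOP motif, through which growth signalling by mTOR turns their translation up and down. Ferritin messages carry an iron-responsive element, a hairpin that iron regulatory proteins bind when iron is scarce, and upstream AUG codons can capture scanning ribosomes before they reach the main reading frame.

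The 3 sequences below are iron-responsive elements, shown because ferritin light and heavy chain were among the messages most depleted from polyribosomes. Letters are DNA, 5′ to 3′, from GENCODE 29 transcripts (GRCh38), and the capitals mark the loop. Those of FTL and FTH1 lie in the 5′ UTR and that of TFRC, 1 of 4 matches there, in the 3′ UTR.
FTL: cttgcttcaaCAGTGTttggacgga
FTH1: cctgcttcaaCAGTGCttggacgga
TFRC: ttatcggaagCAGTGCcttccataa
They lie at chr19:48965337-48965361 on the plus strand, chr11:61967576-61967600 on the minus strand and chr3:196050981-196051005 on the minus strand.

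The next sequences run from 8 bases before the annotated transcription start to 18 bases from it, in RefSeq promoters of GRCh38.p14, and the capitals mark a run of C and T that begins with C at the start. They are shown because messages with such a run lay both low and high within the ribosomal protein and other TOP messages. A proteasome and a respiratory message that have none stand beside them.
RPLP1: cgcgagagCCCCTTTCCTCagctgcc
RPS27: ctttcgctCCTTTCCggcggtgacga
RPS12: gatgaggcCTCTTTCCCTgccgccgc
TPT1: gagtcggcCTTTTCCgcccgctcccc
RPL22: ctcacctcCCTTTCTaactccgctgc
NPM1: cctgcgtcCTTTCCCTggtgtgattc
PSMA3: ggcctgttactagtttgcggcatcct
COX7B: gccattttgtttttcagctcacttca
RPLP1 is at chr15:69452810-69452835, RPS27 at chr1:153990754-153990779, RPS12 at chr6:132814561-132814586, NPM1 at chr5:171387841-171387866, PSMA3 at chr14:58244835-58244860 and COX7B at chrX:77899460-77899485, all on the plus strand. TPT1 is at chr13:45341166-45341191 and RPL22 at chr1:6199578-6199603, on the minus strand.

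The libraries were alike in scale. FPKM summed to 579251 in input and 564769 in polyribosome RNA, the number of rows above 0 was 14645 and 14685, and the genes described took 98.2% and 98.6% of the sums. All 10 defining markers of squamous epithelium were in the table, with summed levels of 1954 FPKM in input and 2464 FPKM in polyribosome RNA, from KRT5 at 906 and 1162 FPKM down to DSG3 at 3.45 and 2.86 FPKM. Of 20 markers of fibroblasts, endothelium and leukocytes 19 were in the table. Of these, 16 were under 1 FPKM in both libraries. CD68, a lysosomal protein of macrophages that other cells also make, was at 71.2 and 69.3 FPKM and no other marker of that list exceeded 2.22 FPKM in input or 2.58 FPKM in polyribosome RNA.

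The log2 ratio used throughout divides (polyribosome FPKM + 1) by (input FPKM + 1), which understates the difference of low genes. FPKM is relative within a library, so a ratio of 0 marks an average message and not an absolute loading. Most messages were close to this average. The median log2 ratio of the 7411 genes was 0.02 and the quartiles were -0.18 and 0.20. Of these genes 3951 had a ratio above 0 and 3450 below, which is the background for the list counts given further on. Departures were lopsided, with depletion reaching much further than enrichment. At least 2-fold lower on polyribosomes were 75 genes (1.01%), and 0 genes (0%) were at least 2-fold higher. At 1.5-fold the counts were 367 lower (4.95%) and 36 higher (0.486%). The highest ratio was 0.85, or 1.80-fold, and the lowest was -5.60, or 48.4-fold lower. Of the 75 genes 39 had a mean under 10 FPKM, and the split by level is given further on. Genes at the edge of the filter had ordinary ratios. FIBCD1 (5.28 FPKM in input and 4.72 FPKM on polyribosomes) and TRIM5 (5.45 and 4.55 FPKM) stood just inside it, and CENPL (5.16 and 4.83 FPKM) just outside.

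**Figure D1:**
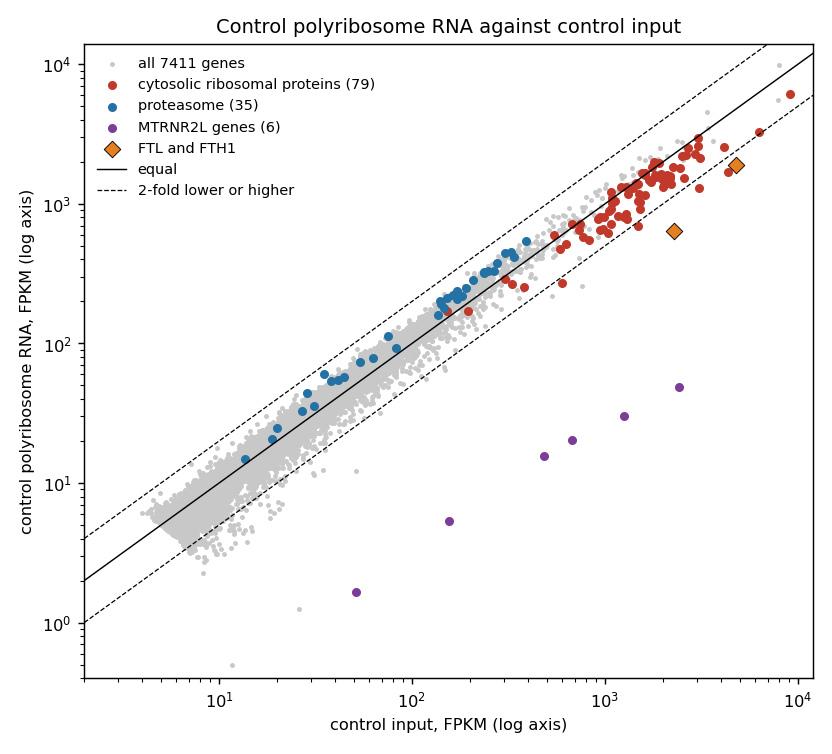
Polyribosome FPKM (vertical, log axis) against input FPKM (horizontal, log axis) for all 7411 genes in grey, 1 point per gene and 1 library per axis. Solid and dashed lines mark equality and 2-fold differences; 1 gene listed at 0 on polyribosomes is drawn near the lower edge. Ribosomal protein messages lie mostly under the line of equality, all 35 proteasome messages above it, and the 6 MTRNR2L genes far below.

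The most depleted sequences were the MTRNR2L genes, nuclear copies of the mitochondrial 16S ribosomal RNA region that encodes the peptide humanin. Of 10 such genes 6 passed the filter and all 6 had the lowest ratios of the genes ranked. MTRNR2L2 was at 2427 FPKM in input and 49.1 FPKM on polyribosomes, a log2 ratio of -5.60. MTRNR2L8 was at 1250 and 30.5 FPKM (-5.31), and MTRNR2L6, the lowest expressed of them, at 51.5 and 1.66 FPKM (-4.30). All 6 were below every other ranked gene. The log2 ratio was less low where the level was lower, in part because of the added 1 FPKM. Without it, polyribosome FPKM was 2.02% of input FPKM for MTRNR2L2, 3.42% for MTRNR2L10 and 3.22% for MTRNR2L6. These genes are nearly identical to one another and to the mitochondrial RNA, so the assignment of reads to them is uncertain. None of the 13 mitochondrially encoded messages was among the table's rows, and neither were any of the 25 long non-coding RNAs looked for, so known non-coding RNA gave no reference level.

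Both ferritin messages were abundant and more than 2-fold lower on polyribosomes. Ferritin stores iron in a shell of light and heavy chains. FTL, the light chain, was at 2285 FPKM in input and 640 FPKM on polyribosomes, a log2 ratio of -1.83. FTH1, the heavy chain, was at 4810 FPKM in input and 1906 FPKM on polyribosomes, a log2 ratio of -1.33. Both carry the hairpin printed above near the 5′ end. That hairpin was searched on the transcript strand as a C, 5 bases of any kind, CAGTG, 1 base of any kind and 5 bases that pair with the first 5, with G-T pairs allowed. It was found in the 5′ UTR of 9 of 7359 genes (0.122%). The other 7 of these genes ran from PRPF18, a splicing factor (10.2 and 8.44 FPKM, log2 ratio -0.25), to GART, a purine synthesis enzyme (100 and 130 FPKM, 0.36). A match is a description of letters and not a shown binding site.

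The other messages of the iron list carry the element elsewhere or in another form. TFRC, the transferrin receptor, whose hairpins lie in the 3′ UTR and act on message stability, was at 9.36 FPKM in input and 8.34 FPKM on polyribosomes (log2 ratio -0.15). SLC11A2, an iron transporter, was at 5.55 and 5.39 FPKM (-0.04). EPAS1, a hypoxia-inducible factor subunit, was at 13.8 and 14.4 FPKM (0.06). HIF1A, the related subunit, was at 20.2 and 7.31 FPKM (-1.35), and no such hairpin was found in its 5′ UTR. The 7 members that passed the filter thus split around a median of -0.15. At least 2-fold lower were 3, against 1.01% of all genes, and 4 were within 1.5-fold of equal. With genes averaging under 10 FPKM left out the median was -1.33, because TFRC and SLC11A2 leave the list.

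Messages of the cytosolic ribosome were lower on polyribosomes as a group. Of 79 ribosomal protein genes that passed the filter 67 had a log2 ratio below 0 and 12 above, and their median was -0.29 beside 0.02 for all genes. Together they took 23.6% of the FPKM sum of input and 18.5% of that of polyribosome RNA. At least 1.5-fold lower were 15 of the 79, against 4.95% of all genes, and 4 were at least 2-fold lower, against 1.01%. The small subunit list had a median of -0.32 over 32 genes, 30 of them below 0, and the large subunit list a median of -0.24 over 47 genes, 37 below 0. Ribosomal protein genes have many processed copies in the genome, so their FPKM is uncertain to the extent that reads were shared.

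Individual subunits differed widely around this. RPLP1, an acidic protein of the ribosomal stalk, was at 4353 FPKM in input and 1695 FPKM on polyribosomes, a log2 ratio of -1.36. RPS27, a zinc-finger subunit, was at 3082 and 1310 FPKM (-1.23), RPS29 at 599 and 270 FPKM (-1.14), and RPS12 at 1486 and 691 FPKM (-1.10). These 4 were the ribosomal proteins at least 2-fold lower. At the other end RPL22 was at 152 and 172 FPKM (0.18), RPL7 at 1075 and 1212 FPKM (0.17), and RPL11, which also binds MDM2, at 1804 and 2007 FPKM (0.15). FAU, which encodes RPS30 behind a ubiquitin-like domain, was at 546 and 603 FPKM (0.14). Depletion was thus not a property of every ribosomal message.

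Within the ribosomal proteins the ratio was lowest for the shortest proteins. The 9 encoding fewer than 100 residues had a median of -0.73, all below 0 and 7 of them at least 1.5-fold lower. RPL41, the shortest at 25 residues, was at 6309 FPKM in input and 3281 FPKM on polyribosomes (-0.94). The median was -0.24 over 29 genes of 100 to 149 residues, -0.30 over 19 genes from 150 to under 200 residues and -0.10 over 19 genes of 200 to 299 residues. The 3 of 300 residues or more had a median of -0.18. Short reading frames hold few ribosomes, which is background and was not tested here. Across these 79 genes, which share both libraries and are not independent, the Spearman coefficient of the ratio with protein length was 0.41.

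Mitochondrial proteins encoded in the nucleus have a like range of lengths and served as a comparison. The 154 genes of the respiratory complexes and the mitochondrial ribosome had a median of 0.26, with 138 above 0. The 21 with fewer than 100 residues had a median of 0.04, the 45 of 100 to 149 residues one of 0.16, and the 32 from 150 to under 200 residues one of 0.37. The 27 of 300 residues or more had a median of 0.38. Over these 154 genes the Spearman coefficient of the ratio with protein length was 0.44. In each length class from under 100 to 299 residues the median of the mitochondrial genes lay above that of the ribosomal proteins.

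**Figure D2:**
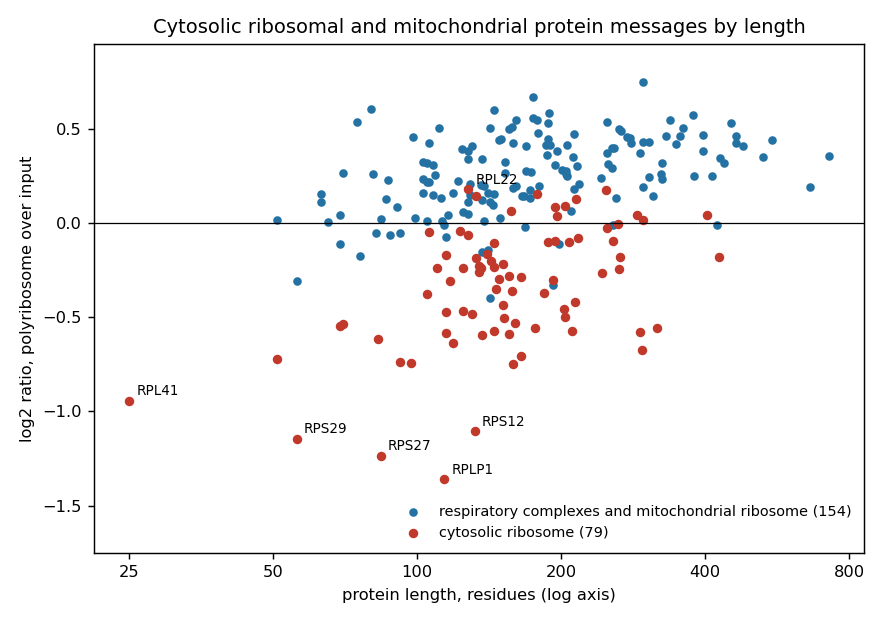
Log2 ratio of polyribosome over input FPKM (vertical) against protein length in residues (horizontal, log axis) for 79 cytosolic ribosomal protein genes in red and 154 nuclear-encoded respiratory and mitochondrial ribosomal protein genes in blue, 1 point per gene. Both groups slope upward with length, and the ribosomal proteins lie lower at like lengths, down to RPLP1 at -1.36.

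The pyrimidine start was common among ribosomal proteins and was found there at both ends. The run searched was a C at the annotated start followed by at least 4 further C or T on the transcript strand, and 4.04% of all 27305 promoters in the RefSeq table hold it. Of the ribosomal protein genes 63 had a promoter in that table and 43 of these had the run. The median log2 ratio was -0.35 over those 43 and -0.18 over the 20 without it. RPL22, the highest ribosomal protein, has the run, as printed above, and RPS29, at -1.14, has none in this window. Over the other genes the run made little difference to the median, which was 0.02 over 341 genes with it and 0.03 over 5748 without.

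Other messages known to carry the TOP motif spread across most of the range. PABPC1, the cytoplasmic poly(A)-binding protein, was at 764 FPKM in input and 258 FPKM on polyribosomes (log2 ratio -1.56). TPT1, the growth-related tumor protein TCTP, was at 534 and 221 FPKM (-1.27), and the import receptor IPO7 at 16.3 and 8.52 FPKM (-0.86). EEF1A1, the elongation factor that brings tRNA to the ribosome, had a ratio of -0.36, and EEF2, another elongation factor, one of -0.22. By contrast NPM1, a nucleolar histone chaperone, was at 803 and 1126 FPKM (0.49), and HNRNPA1, a splicing repressor, at 573 and 802 FPKM (0.48). EIF3M, an initiation factor subunit, was at 243 and 327 FPKM (0.43). Over the 25 genes of this list 12 were below 0 and 13 above, and the median was 0.01, beside 0.02 for all genes. At least 1.5-fold lower were 4 of them (16%), against 4.95% of all genes.

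Further lists of the translation machinery were mostly on the enriched side. They leave out the elongation factors and several initiation factors, which stand in other lists, such as EIF3M (0.43) and EIF2A (-0.81). Eukaryotic initiation factors had a median of 0.20 over 32 genes, with 26 above 0, led by EIF2B3, a subunit of the eIF2 exchange factor, at 22.9 and 33.1 FPKM (0.51). At least 1.5-fold lower were 2 members, EIF3A, the largest subunit of eIF3, at 11.4 and 4.97 FPKM (-1.06) and EIF4EBP2, an mTOR-controlled repressor of cap binding, at 12.9 and 7.92 FPKM (-0.64). They were 6.25% of the list, close to the 4.95% of all genes. Aminoacyl-tRNA synthetases, which charge tRNAs, had a median of 0.25 over 23 genes with 21 above 0, from IARS at 47.4 and 41.8 FPKM (-0.18) to AIMP2, a scaffold of the synthetase complex, at 78.1 and 114 FPKM (0.54). Nucleolar ribosome biogenesis genes had a median of 0.21 over 40 genes. There NOP58, a core protein of box C/D particles, was the lowest at 13.7 and 6.39 FPKM (-0.99) and NOLC1, a nucleolar phosphoprotein, the highest at 55.4 and 80.6 FPKM (0.53).

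Messages for the machines that degrade and fold proteins were higher on polyribosomes as whole lists. The proteasome cuts up ubiquitinated proteins in a core that a regulator opens. All 14 genes of the 20S proteasome core and all 21 of the 19S regulator had ratios above 0, with a median of 0.41 over the 35. Together they took 0.892% of the FPKM sum of input and 1.22% of that of polyribosome RNA. In the core the ratio ran from PSMB2, at 82.2 and 92.5 FPKM (0.17), to PSMA3, at 35.0 and 60.6 FPKM (0.77). PSMB5, the subunit that bortezomib binds, was at 171 and 210 FPKM (0.30). In the regulator it ran from PSMD5, an assembly chaperone, at 18.9 and 20.6 FPKM (0.11), to PSMD10, another, at 28.7 and 44.3 FPKM (0.61). At least 1.5-fold higher were 3 of the 35, against 0.486% of all genes, so the shift was small for each gene but shared by all.

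The cytosolic chaperonin and its helper prefoldin, which fold actin and tubulin, had a like pattern. All 13 genes were above 0, with a median of 0.43, from PFDN1 at 78.2 and 95.8 FPKM (0.29) to CCT5 at 130 and 193 FPKM (0.57). HSP70, HSP90 and their partners had a median of 0.23 over 22 genes. STIP1, which links both chaperones, was at 143 and 205 FPKM (0.52), and HSP90AB1, the constitutive HSP90, at 518 and 736 FPKM (0.51). HSPH1, an exchange factor for HSP70, stood apart at 12 and 4.52 FPKM (-1.24). Endoplasmic reticulum chaperones had a median of 0.32 over 19 genes, led by the disulfide isomerase PDIA3 at 60.8 and 90.1 FPKM (0.56), while HSP90B1, the HSP90 of that compartment, was at 32.4 and 22.7 FPKM (-0.50).

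**Figure D3:**
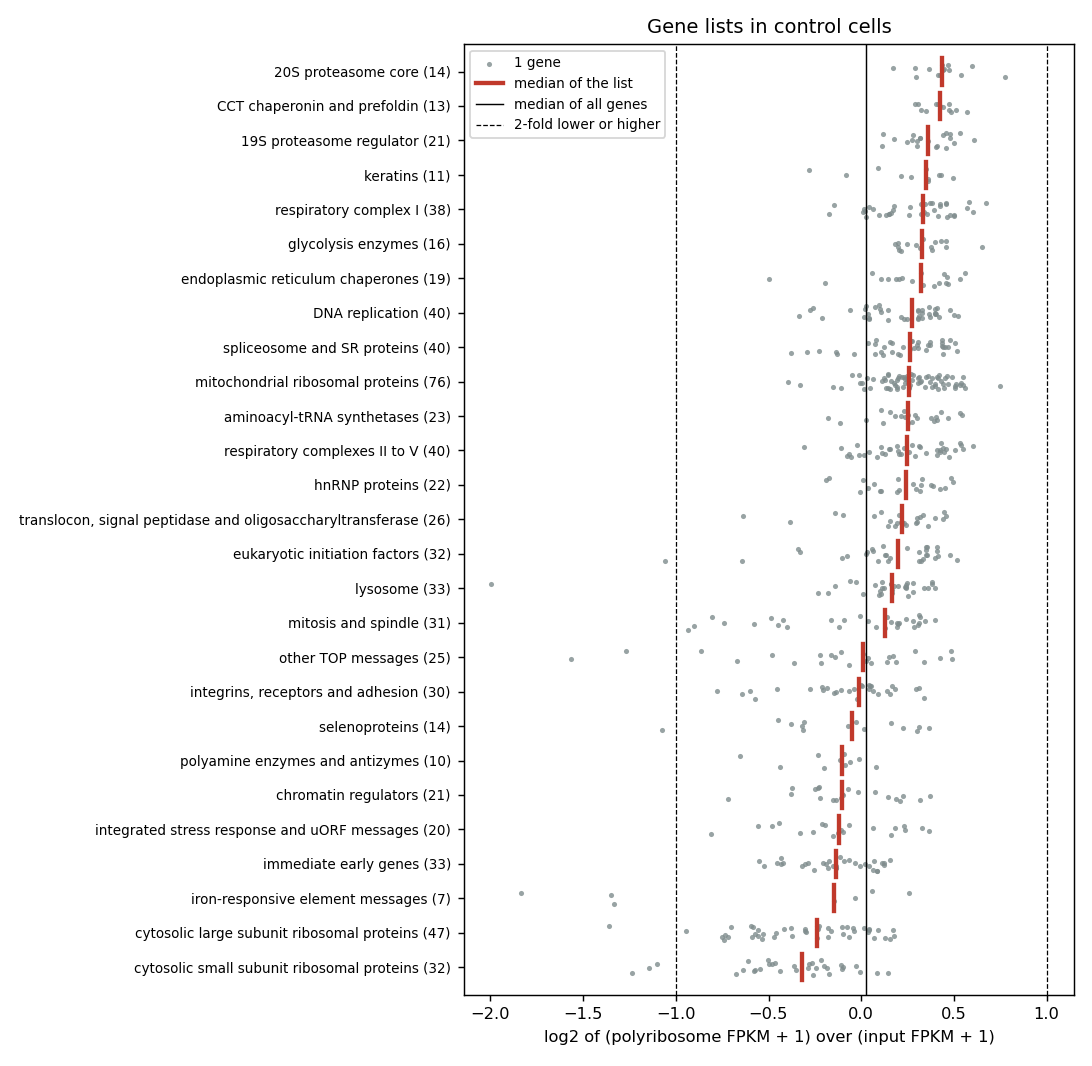
Log2 ratio of polyribosome over input FPKM (horizontal) for the genes of 27 lists, 1 grey point per gene, with the number of genes in parentheses and a red bar at the median of each list. The solid line is the median of all genes, 0.02, and dashed lines mark 2-fold differences. Proteasome and chaperonin lists lie wholly above 0, and both ribosomal protein lists lie mostly below it. The polyamine list includes ANTXR1, which is no polyamine gene.

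Messages of energy metabolism were mostly above 0 too. Respiratory complex I had a median of 0.33 over 38 genes with 36 above 0. NDUFS4, an accessory subunit, was at 49.4 FPKM in input and 79.1 FPKM on polyribosomes (0.67), and NDUFA12 at 211 and 321 FPKM (0.60). Complexes II to V had a median of 0.24 over 40 genes, with COX7B of cytochrome oxidase at 279 and 425 FPKM (0.60) and UQCR11, a very small subunit of complex III, at 118 and 95.5 FPKM (-0.31). Mitochondrial ribosomal proteins had a median of 0.26 over 76 genes, 69 of them above 0, led by MRPL15 at 25.1 and 42.7 FPKM (0.75). The mitochondrial ribosome was thus on the other side of the average from the cytosolic ribosome, whose median was -0.29. All 16 glycolysis enzymes were above 0 with a median of 0.33, among them LDHB, a lactate dehydrogenase chain, at 497 and 782 FPKM (0.65) and LDHA at 607 and 833 FPKM (0.46).

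Nuclear functions divided by kind of gene. DNA replication genes had a median of 0.27 over 40 genes with 35 above 0, including the primase subunit PRIM2 at 18.3 and 26.7 FPKM (0.52). Spliceosome and SR protein genes had a median of 0.27 over 40 and hnRNP proteins one of 0.24 over 22. Chromatin regulators, in contrast, had a median of -0.11 over 21 genes with 14 below 0, from KDM6A, a histone demethylase, at 6.73 and 3.69 FPKM (-0.72), to CHD4, a remodeller, at 45.8 and 59.6 FPKM (0.37). Mitosis genes were wide, with a median of 0.13 over 31 genes. The kinesin KIF23 at 8.33 and 3.88 FPKM (-0.93), the kinetochore protein NUF2 at 8.65 and 4.16 FPKM (-0.90) and the checkpoint kinase TTK at 7.73 and 4.00 FPKM (-0.80) were its lowest. CDC20, an activator of the anaphase-promoting complex, was its highest at 229 and 302 FPKM (0.40). All 3 low members were weakly expressed.

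Lists of stimulus and stress genes lay on both sides of the average. Interferon-induced genes had a median of 0.13 over 20 genes with 16 above 0. Inflammatory cytokines and NF-kB targets had one of 0.07 over 14 genes with 9 above 0, close to all genes. Immediate early genes, transcribed within minutes of a stimulus, had a median of -0.14 over 33 genes with 23 below 0. EGR1, a zinc-finger transcription factor, was at 352 FPKM in input and 240 FPKM on polyribosomes (-0.55), and CYR61, a secreted matrix protein, at 298 and 332 FPKM (0.16). None of the 33 was 1.5-fold lower or higher, against 4.95% and 0.486% of all genes. Messages of the integrated stress response, several of which hold upstream reading frames, had a median of -0.12 over 20 genes. Of these 13 were below 0 and 7 above. ATF4, whose upstream frames keep ribosomes off its coding sequence in unstressed cells, was at 432 and 294 FPKM (-0.55), and PPP1R15B, a phosphatase subunit that reverses the response, at 6.30 and 4.23 FPKM (-0.48). EIF2A, an initiation factor of that list, was lowest at 23.1 and 12.7 FPKM (-0.81). The enzymes ASNS and PHGDH, which ATF4 induces, stood on the other side. ASNS was at 79.3 and 99.9 FPKM (0.33) and PHGDH, the highest of the list, at 45.6 and 59.0 FPKM (0.36).

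Several polyamine genes are controlled at translation by polyamines themselves. Their list also held ANTXR1, a toxin receptor that does not belong there, so no count or median is given. AMD1, which makes decarboxylated S-adenosylmethionine, was at 15.6 and 9.56 FPKM (-0.66), and ODC1, the first enzyme of the pathway, at 56.5 and 41.5 FPKM (-0.44). Its inhibitor OAZ1, which needs a frameshift, was at 569 and 564 FPKM (-0.01). Selenoproteins, which read a UGA codon as selenocysteine, had a median of -0.05 over 14 genes, which turned to 0.04 when the trend with GC content and length was removed. SEPW1 was at 119 and 56.0 FPKM (-1.07), GPX4, which reduces lipid peroxides, at 538 and 414 FPKM (-0.38), and GPX1 at 826 and 663 FPKM (-0.32). SEPHS2, which makes the selenium donor, was at 39.4 and 48.7 FPKM (0.30).

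NFE2L2 stood far below the targets of its pathway. NFE2L2 encodes NRF2, a transcription factor that the KEAP1 ligase normally degrades. Its message was at 30.95 FPKM in input and 11.5 FPKM on polyribosomes (log2 ratio -1.36). Its target PRDX1, a peroxiredoxin, was at 540 and 823 FPKM (0.61), the transaldolase TALDO1 at 119 and 163 FPKM (0.45) and thioredoxin, TXN, at 680 and 838 FPKM (0.30). KEAP1 was near equal at 29.4 and 30.0 FPKM (0.03). Over the 15 genes of this list 10 were above 0, and the median was 0.22.

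Keratin and cytoskeleton messages were mostly on the enriched side. Keratins had a median of 0.35 over 11 genes, from KRT10 of upper epidermal layers at 27.1 and 22.2 FPKM (-0.28) to KRT8 at 1503 and 2120 FPKM (0.50). Of the cytoskeleton list 33 of 35 were above 0, and ACTB was at 3386 and 4580 FPKM (0.44). The tubulin TUBA1B was at 2565 and 2567 FPKM, almost exactly equal. The list of squamous epithelium and cornified envelope genes was nearer the average, with a median of 0.11 over 15 genes, 10 above 0. There CNFN, a cornified envelope protein, was low at 10.7 and 6.07 FPKM (-0.72). Integrins, receptors and adhesion genes had a median of -0.01 over 30 genes, close to that of all genes. There DSG2, a desmosomal cadherin, was at 9.62 and 5.20 FPKM (-0.78), the receptor MET at 7.58 and 4.50 FPKM (-0.64) and the integrin chain ITGA6 at 10.2 and 6.37 FPKM (-0.60).

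The 5-methylcytosine list, to which the enzyme of the study belongs, had 6 of 7 members above 0. NSUN6 was at 8.85 FPKM in input and 10.1 FPKM on polyribosomes (0.18), and NSUN2, the main messenger RNA methyltransferase of the family, at 24.7 and 30.7 FPKM (0.31). ALYREF, an export factor that reads the mark, was at 193 and 319 FPKM (0.72) and was among the most enriched of all genes. YBX1, a cytoplasmic reader, was at 391.8 and 389.7 FPKM (-0.01). Replication-dependent histones, whose messages lack a poly(A) tail, had a median of -0.09 over the 13 that passed the filter, and replication-independent histones, which have one, a median of 0.21 over 10. Of the former 13 of 57 passed, and the libraries were made with an mRNA kit, per the labels' protocol.

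The other ranked genes at the low end were mixed in function. C5orf63, a glutaredoxin-like protein, was at 25.9 FPKM in input and 1.26 FPKM on polyribosomes (-3.57). IDS, the lysosomal iduronate sulfatase, was at 51.5 and 12.2 FPKM (-1.99), while the lysosome list around it had a median of 0.16 over 33 genes. TAF1D, a subunit of the RNA polymerase I factor SL1 whose gene hosts small nucleolar RNAs, was at 20.4 and 6.47 FPKM (-1.52). PTPN12, a tyrosine phosphatase, was at 34.6 and 12.4 FPKM (-1.42), TAB2, an adaptor of TAK1 kinase, at 18.4 and 6.32 FPKM (-1.41), and MATR3, a nuclear matrix protein, at 17.98 and 6.93 FPKM (-1.26). SULT1A4, a sulfotransferase with a near-identical copy, was at 11.7 FPKM in input and listed at 0 on polyribosomes, which leaves its assignment uncertain.

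At the high end no gene reached 2-fold, and the functions were again mixed. SPA17, a sperm surface protein also made in tumor cells, was at 7.12 and 13.6 FPKM (0.85). MAGOH, a core subunit of the exon junction complex, was at 51.9 FPKM in input and 90.8 FPKM on polyribosomes (0.80). GLRX2, a mitochondrial glutaredoxin, was at 17.4 and 30.4 FPKM (0.77). SNRPB2, of the U2 particle, was at 41.5 and 65.7 FPKM (0.65), CDC123, which assembles eIF2, at 146 and 225 FPKM (0.63), and MDH1, the cytosolic malate dehydrogenase, at 79.8 and 123 FPKM (0.62). ANKHD1 was at 9.80 and 17.7 FPKM (0.79), but it shares sequence with a readthrough transcript and is uncertain. In the authors' deposited table, which adds 5 to both FPKM, the ratio was 1.64 for PSMA3, 1.68 for MAGOH and 0.282 for FTL. Only MTPN exceeded 2 there, at 2.58. It was listed at 0 in input and at 7.88 FPKM on polyribosomes, so its mean fell short of the filter, and its overlap with another gene makes it uncertain.

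**Figure D4:**
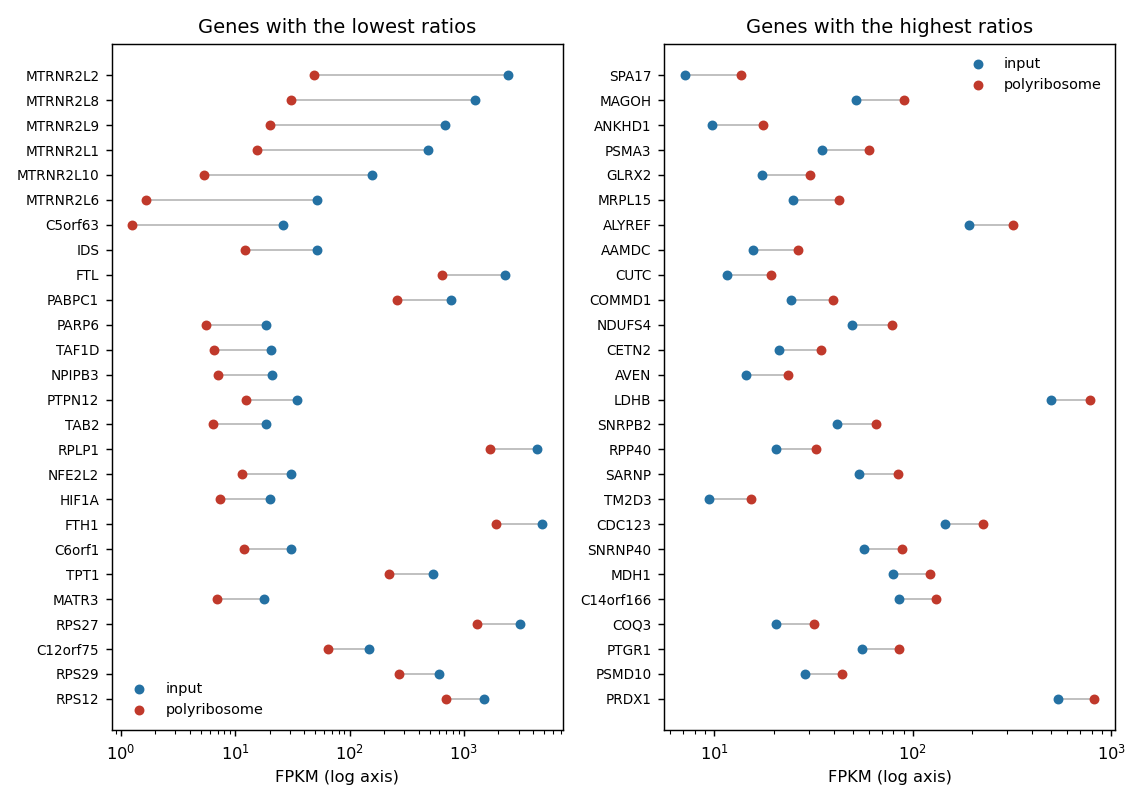
FPKM (log axis) in input (blue) and polyribosome RNA (red) of control cells, 1 row per gene, for 26 genes of the lowest 27 (left) and the 26 highest (right) by log2 ratio among genes averaging 10 FPKM or more. The gaps are wide on the left, up to MTRNR2L2 at 2427 and 49.1 FPKM, and narrow on the right, where SPA17 has the widest on the log2 scale.

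Transcript structure differed between the genes past 1.5-fold in each direction. Against a median over all matched genes of 874 bases of 3′ UTR and 195 bases of 5′ UTR, the 1.5-fold lower genes had medians of 1194 and 238 bases and the 1.5-fold higher genes 334 and 107 bases. The longer 3′ UTR did not hold for the furthest genes, with a median of 866.5 bases over the 2-fold lower genes and 473.5 bases over the 40 lowest. An upstream AUG was present in 67.3% of the lower genes, 22.2% of the higher genes and 50.1% of all. Both extremes were poor in G and C, with median transcript GC of 42.8% and 44.4% beside 51.7% over all genes. They differed in level, with medians of 9.74 and 48.0 FPKM for the mean of both libraries. The classes of the whole table ran the same way for upstream AUGs. The median log2 ratio was 0.09 over 3669 genes with none, -0.03 over 2320 with 1 or 2 and -0.07 over 1370 with 3 or more. From 10 to 30 FPKM alone these medians were 0.07, -0.04 and -0.06. The median also fell with 5′ UTR length, from 0.09 under 100 bases to -0.05 at 400 bases or more. Within 200 to 400 bases of 5′ UTR the 3 upstream AUG classes had medians of 0.06, -0.05 and -0.08. At 400 bases or more they were closer, at -0.01, -0.04 and -0.06. The separate parts of upstream AUGs and 5′ UTR length were not tested.

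Genes with AU-rich 3′ UTRs had a wide spread of ratios. The motif ATTTA is part of AU-rich elements, which shorten the life of many messages. These windows of 30 bases from 3′ UTRs (GENCODE 29, GRCh38) are shown because HIF1A, TAB2 and SLC38A2 joined low ratios with many copies, and the capitals mark ATTTA, read on the transcript strand, where copies may overlap.
HIF1A: ttttaaaaaatgcacctttttATTTATTTA
TAB2: gtATTTAtaaaacaaggctagccatATTTA
SLC38A2: tacaaattcagatctcttATTTAaaATTTA
They lie at chr14:61747337-61747366 and chr6:149410965-149410994 on the plus strand and chr12:46358443-46358472 on the minus strand. HIF1A has 8 copies in a 3′ UTR of 1173 bases, TAB2 7 in 1894 bases and SLC38A2, an amino acid transporter at 24.96 FPKM in input and 12.3 FPKM on polyribosomes (-0.97), 11 in 2922 bases. Many copies were not a trait of all low genes, with 1 in PTPN12, 3 in NFE2L2 and 4 in MATR3. The median was 1 copy both over the 40 lowest genes and over all genes. It was 2.5 copies over the 2-fold lower genes and 3 over the 1.5-fold lower genes.

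Across all genes, the direction that went with AU-rich 3′ UTRs depended on the level of the message. Genes with a 3′ UTR GC under 35% had a median of -0.06 over 1335 genes, and 13.1% of them were at least 1.5-fold lower, against 4.95% of all. They also held a share of 1.20% at least 1.5-fold higher, against 0.486%. From 5 to 10 FPKM their median was -0.29, from 10 to 30 FPKM -0.06, from 30 to 100 FPKM 0.19 and from 100 to 300 FPKM 0.24. At 300 FPKM or more it was back at -0.01 over 55 genes. For genes with a 3′ UTR GC of 50% or more the 5 medians were -0.06, 0.01, 0.07, 0.12 and 0.10. The overall median of the AU-rich class was 0.07 when genes under a mean of 10 FPKM were left out, so its sign depends on the filter.

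**Figure D5:**
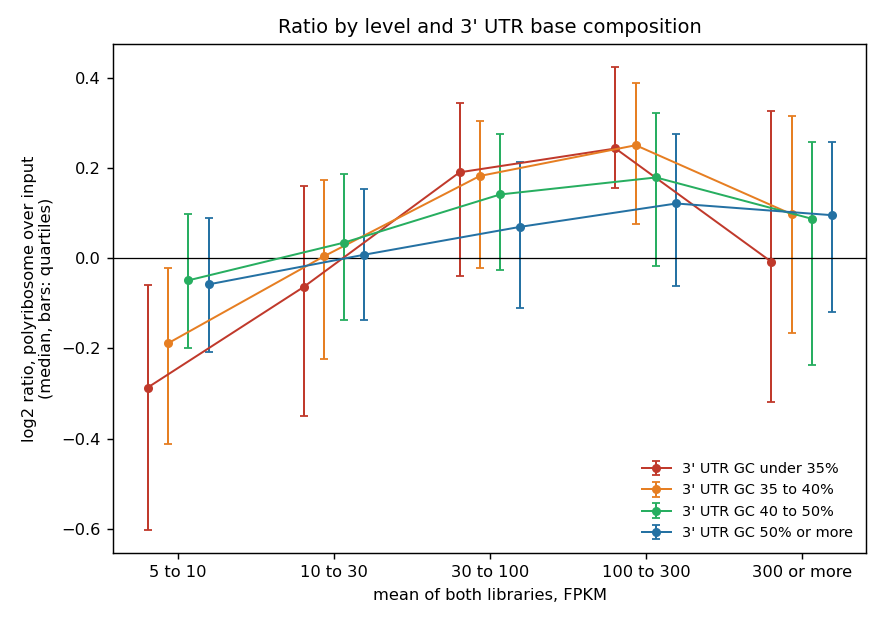
Median log2 ratio of polyribosome over input FPKM (vertical, bars are quartiles over genes) by mean FPKM of both libraries (horizontal, classes) for 4 classes of 3′ UTR GC content. The class under 35% GC runs from -0.29 at 5 to 10 FPKM to 0.24 at 100 to 300 FPKM and back to -0.01 at 300 FPKM or more, while the class of 50% or more stays between -0.06 and 0.12.

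The ratio also went with the length of the 3′ UTR. Among genes with a 3′ UTR GC under 35%, the median log2 ratio was 0.11 over 563 genes with under 500 bases of 3′ UTR and -0.34 over 189 genes with 2000 to 4000 bases. Among genes of 50% or more the median at 2000 to 4000 bases was -0.01 over 314 genes. From 10 to 30 FPKM the AU-rich medians were 0.06 for the short class and -0.28 for the long one. Level, base composition and UTR length move together among these genes, and their separate parts in the ratio were not tested. Over all genes the median was -0.12 from 5 to 10 FPKM, 0.01 from 10 to 30 FPKM, 0.13 from 30 to 100 FPKM, 0.18 from 100 to 300 FPKM and 0.08 at 300 FPKM or more. In that last class the median was -0.30 over 75 ribosomal protein genes and 0.15 over the other 210. By protein length the medians of all genes lay close together, from -0.09 over 207 genes of under 100 residues to 0.07 over 2425 genes from 200 to under 400 residues.

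The knockdown-labelled libraries of the same table did not have this compact shape. The quartiles of their log2 ratio were 1.71 apart over 6942 genes, against 0.38 in control. The header and the closing line of the table give those fractions in opposite orders, so the sign of that ratio cannot be told. The closing line also names them K30 with a hairpin against Mettl1, where the labels say KYSE-150 with a hairpin against NSUN6, so what cells they hold cannot be told either. The order of the control columns is the same in both lines.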

How the data were processed

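Per gene symbol, the table that the authors deposited gives FPKM in 4 libraries, 1 per group, and a translation efficiency ratio, which the values show to be polyribosome over input FPKM with 5 added to both (largest gap 5e-10). Alignment used TopHat with the builds hg19 and GRCh37, per the submitters' processing notes. Per the labels' protocols a kit for stranded mRNA libraries was used. The sources used here do not give version, counting tool, annotation or filters. The depth is unknown, since the lowest value above 0 is 0.01 FPKM, which is the rounding limit, and whole reads were not recoverable. In 28 rows a number or nothing stands for a name; they entered the counts and named no gene.

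Ratios were differences of log2(FPKM + 1) between the control libraries, for genes averaging 5 FPKM or more (Python 3.11.15, pandas 2.3.3, numpy 2.4.6). With 1 library per group genes past 2-fold and 1.5-fold were counted, without tests. The members and the 49 gene lists were chosen with earlier results of these data known. Genes named are the 40 lowest and 40 highest of those averaging 10 FPKM or more that have a symbol and 1 row, the 3 highest and 3 lowest and the first 6 of each list, and members of lists of up to 15 genes. SULT1A4, MTPN, the genes with the hairpin in the 5′ UTR and those at the edge of the filter were chosen after their values were seen, as were the features of UTRs, upstream AUGs, GC content and the searched hairpin. Lengths and GC content came from 1 GENCODE 29 transcript per gene (7359 of 7411, 99.3%) and start sites from RefSeq promoters of GRCh38.p14 (6152 genes, 83.0%). Protein length is that of the coding sequence. The calculation was tested on simulated data. Of the 27 lowest genes 1 is not reported, and some list members are not reported here either.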

Additional observations from a re-analysis of the deposited data

Results flagged for a closer look

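These genes were at least 2-fold lower on polyribosomes in control cells and at least 2-fold higher in the knockdown-labelled pair when the header's column order is followed, in columns whose cells and hairpin the closing line of the table names differently. The difference between the pairs was not tested, and with the knockdown-labelled fractions in the order of the closing line of the table the knockdown-labelled ratio changes sign. Of the 36 genes at least 2-fold lower in control with a mean of at least 10 FPKM, 21 were at least 2-fold higher, 11 at least 2-fold lower and 4 between in the header's order. Over all 6942 genes of the knockdown-labelled pair that averaged 5 FPKM or more 641 were at least 2-fold higher and 1868 lower in that order. In the header's order the knockdown-labelled minus control difference in log2 ratio was 8.36 for MTRNR2L1, 8.06 for MTRNR2L2, 7.89 for MTRNR2L10, 7.80 for MTRNR2L8, 7.60 for MTRNR2L9 and 6.30 for MTRNR2L6. It was 5.55 for C5orf63, 5.16 for FTL, 3.37 for FTH1 and 4.23 for IDS. Among ribosomal proteins it was 3.93 for RPLP1, 3.26 for RPS29, 2.51 for RPS27 and 2.32 for RPS12. It was 3.86 for SEPW1, 3.56 for C6orf1, 3.28 for LSM10, 3.16 for ST6GALNAC6, 3.01 for PARP6, 2.67 for JTB and 2.20 for C12orf75. Some of these rest on low knockdown-labelled values. In the header's order input and polyribosome FPKM were 0.77 and 2.57 for C12orf75, 1.03 and 6.97 for C5orf63 and 0.79 and 6.12 for MTRNR2L6. These genes averaged under 5 FPKM in that pair, so they are not among its 6942 genes. In the other order the change of sign by itself makes all 21 genes at least 2-fold lower in the knockdown-labelled pair. By the same change the 11 genes at least 2-fold lower in the header's order become at least 2-fold higher. The differences of the 21 then lay between -1.71 for SEPW1 and 3.13 for MTRNR2L2, with 1.39 for MTRNR2L1, -1.49 for FTL and -1.21 for RPLP1.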

How the results depend on the processing

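No paired analysis was possible because each group has 1 library. The count of genes at least 2-fold lower, 75, was 31 with a pseudocount of 5, 36 at a mean of at least 10 FPKM, 132 at a mean of at least 1 FPKM and 133 with no filter on low values. The count at least 2-fold higher, 0, was 3 at a mean of at least 1 FPKM and 6 with no filter. The count at least 1.5-fold lower, 367, was 181 with a pseudocount of 5 and 181 at a mean of at least 10 FPKM, 844 at a mean of at least 1 FPKM and 895 with no filter. The count at least 1.5-fold higher, 36, was 21 with a pseudocount of 5, 58 with no filter, 60 with each library scaled to its FPKM sum and 57 with the trend on GC content and length removed. Of 367 list medians under 8 settings 363 moved by less than 0.2 on the log2 scale, and of 3672 values of named genes 3612 did. The description of hydrophobic N-termini was not run, since no protein sequences were used here. Unknown depth limits what the lowest genes can show.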
